A study of Homo sapiens with 4 samples.

Results

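The regions described here are the clusters of ADAR eCLIP reads in the first 3 kb of protein-coding genes longer than 10 kb, mapped in K562 cells. Most of them were not enriched over input, so a cluster is a place where reads gathered and not by itself a bound site. A cluster was counted when its midpoint lay in exactly 1 RefSeq gene span of GRCh38.p14, on the strand of that gene and within 3 kb of the 5′ end of the span. By this rule 29656 of 534161 clusters of replicate 1 (5.55%) were kept, in 6631 genes. Replicate 2 gave 7798 of 155848 clusters (5.00%) in 3366 genes. Of the 1717 peaks in the list that combines both replicates, called here the reproducible list, 54 (3.15%) were kept, in 23 genes. The rule used position alone, with clusters giving the strand of genes that had no annotated strand; the reproducible list itself holds peaks the authors had already selected, with a lowest start log2 fold of 3.05.

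The study mapped RNA bound by ADAR with eCLIP, in which ultraviolet light links protein to RNA, an antibody pulls the protein down, and the attached RNA fragments are sequenced. Replicates 1 and 2 each consisted of an immunoprecipitated (IP) library, pulled down with an ADAR1 antibody, and an input library, so the IP and the input groups held 2 libraries each. All came from untreated K562, an erythroid-like line grown from a patient with chronic myeloid leukaemia. The labels do not state whether the replicates are separate cultures, and any difference between them could be technical. The growth text of the labels also describes HepG2, a liver line. Of 10 erythroid marker genes, 10 held clusters in replicate 1 (341 clusters) and 9 in replicate 2 (110 clusters), while of 10 hepatocyte genes 1 held a single cluster in replicate 1 and none held one in replicate 2.

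ADAR converts adenosine to inosine in double-stranded RNA. Such duplexes form mostly where inverted repeats, commonly Alu elements in introns and 3′ untranslated regions, pair within a transcript. The first part of a long gene holds the transcript's 5′ end, usually a short and GC-rich first exon that begins in a CpG island, followed by the start of the first intron. The annotation used here has spans without exons, so exon, intron and untranslated region were not assigned, and the span's 5′ end is the most upstream RefSeq start, which K562 cells may not use.

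Sequence could be shown for clusters inside the RefSeq promoter windows, which run from 250 bases before to 50 after an annotated start. Such a start was listed for 21 of the 23 genes with reproducible peaks. None of the peaks that could be placed against one lay within 250 bases downstream of it. That count does not cover the part of a window before a start. Genes with several starts have such windows inside their own first 3 kb, and at 3 of these windows clusters were enriched in both replicates at an overlapping site. They are shown because sequence and enrichment in both replicates could be read together there. The first is on chr1:89821785-89821814, the second on chr19:1249713-1249742 and the third on chrX:110002913-110002942, all on the plus strand of GRCh38.p14, and each is the central 30 bases of the shared site. Capitals mark GGGCGG, the core of the GC box, on either strand.
LRRC8D: gggctgcgctgggagcccggcGGGCGGggg
MIDN: GGGCGGtgccgcggcggctctcataggccc
TMEM164: ctcccgccttccctctggcttcctccctcc

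LRRC8D, a subunit of the volume-regulated anion channel, had 27 G or C bases of 30, MIDN, the gene of the nuclear protein midnolin, had 24, and TMEM164, a membrane protein gene, had 21. GGGCGG on either strand was present in 62.1% of the 300-base RefSeq promoter windows of genes over 10 kb, and in 12.1% of all 30-base stretches of those windows. The LRRC8D site lay 812 bases from the span's 5′ end and had 80 IP and 3 input reads in replicate 1 and 10 IP and 2 input reads in replicate 2. The MIDN site, 1148 bases in, had 70 IP and 1 input read, then 12 and 2. At the TMEM164 site, 560 bases in, the reads were 72 and 2 in replicate 1 and 24 and 1 in replicate 2. Reads per library were recovered from the authors' deposited folds and p-values.

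The RNA of these windows could also fold back on itself. The longest perfect inverted repeat in each 300-base window, with arms at least 3 bases apart, had arms of 10 bases in LRRC8D and TMEM164 and 11 bases in MIDN. They are shown because double-stranded RNA is what ADAR binds; capitals mark the whole arm, and the second arm is the reverse complement of the first.
LRRC8D first arm, from chr1:89821810-89821819: GGGGGCGGGG
LRRC8D second arm, from chr1:89821835-89821844: CCCCGCCCCC
TMEM164 first arm, from chrX:110002911-110002920: GCCTCCCGCC
TMEM164 second arm, from chrX:110003059-110003068: GGCGGGAGGC

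In LRRC8D 15 bases separated the arms and the first arm began inside the site printed above. In TMEM164 138 bases separated them, and the first arm overlapped the shared site. Arms of 10 bases or more were found in 16 of 38 windows overlapped by at least 20 bases by an enriched cluster of replicate 1 (42.1%, exact 95% interval 26.3 to 59.2%). The share was 320 of 1491 windows whose clusters were not enriched (21.5%, 19.4 to 23.6%). GC content moved with it, with a median of 76.3% in the former and 68.3% in the latter. Among windows of at least 70% GC the counts were 14 of 28 and 221 of 640. In replicate 2 only 4 windows held an enriched cluster, all 4 with such arms (exact 95% interval 39.8 to 100%). Among the others the count was 86 of 316 (27.2%). The 4 windows were those of LRRC8D, MIDN, TMEM164 and SQSTM1. Those of LRRC8D, MIDN and TMEM164 were also counted in replicate 1, so the counts of the replicates are not independent. The part of GC content in these shares was not tested, and no structure was measured.

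Enriched, from here on, means a log2 fold of IP over input of at least 3 with a −log10 p of at least 3 in the authors' deposited lists. Over all clusters 1.39% were enriched in replicate 1 and 12.8% in replicate 2. In the first 3 kb the enriched clusters of replicate 1 numbered 550 of 29656 (1.85%, exact 95% interval 1.70 to 2.01%), and those of replicate 2 numbered 653 of 7798 (8.37%, 7.77 to 9.01%). Past 3 kb in the same genes the shares were 1.21% (3921 of 325262) and 14.4% (9823 of 68266). Gene starts thus had the higher share in replicate 1 and the lower share in replicate 2, and the replicates went in opposite directions. The intervals cover counting error only and treat clusters as independent, which neighbouring clusters of a gene are not. With 2 replicates no test over samples was made.

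The replicates were closer in how the share changed along the first 3 kb. In the first 250 bases replicate 1 had 31 enriched clusters of 4961 (0.625%) and replicate 2 had 2 of 938 (0.213%), the lowest share of any distance class in both. The next 250 bases gave 1.57% and 2.09%, and the stretch from 0.5 to 1 kb gave 2.24% and 4.22%. Between 1 and 2 kb the share was 2.45% in replicate 1, its highest, and 11.0% in replicate 2. Between 2 and 3 kb it was 1.92% and 13.1%. From 3 to 5 kb it was 1.53% and 12.8%. Replicate 1 therefore peaked inside the first 3 kb and declined to 1.03% beyond 30 kb, whereas replicate 2 rose to the level of the gene body and stayed there, at 14.1% from 5 to 10 kb.

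**Figure D1:**
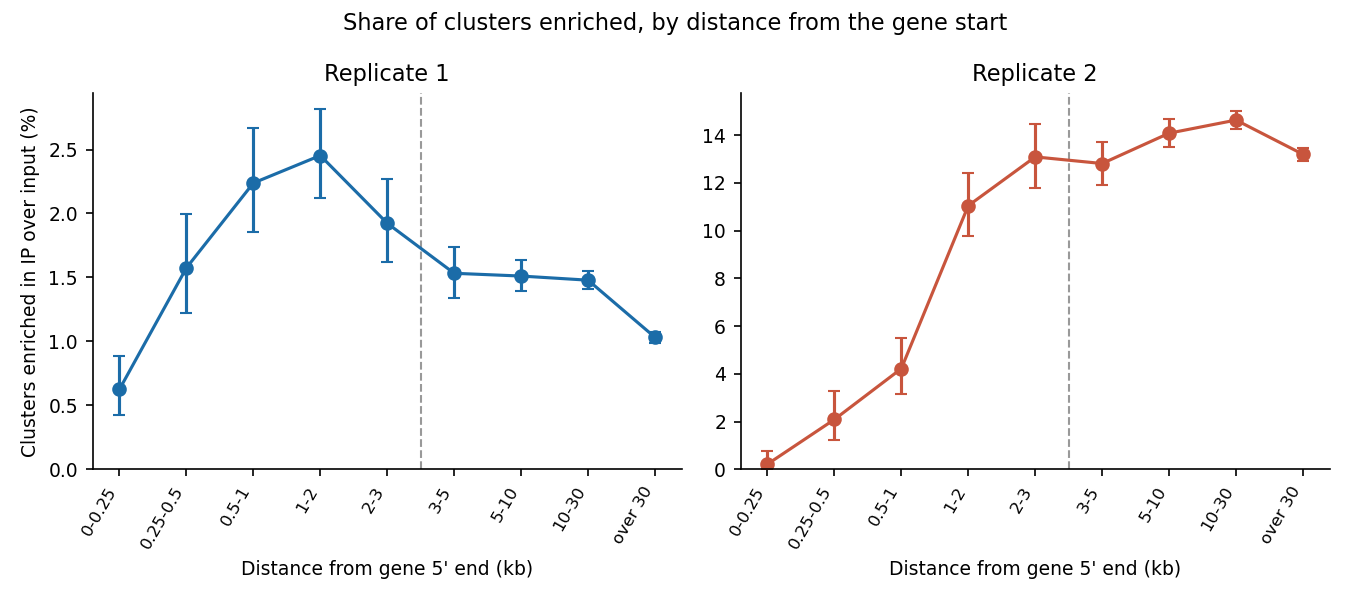
Percentage of clusters enriched in IP over input (y axis, linear, a separate scale for each replicate) by distance of the cluster from the gene 5′ end in kb (x axis, classes of unequal width), for on-strand clusters of protein-coding genes over 10 kb. Bars are exact 95% binomial intervals and the dashed line marks 3 kb; both replicates start at their lowest share, 0.625% and 0.213%.

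The first 250 bases were also lowest in genes whose annotated start was covered by reads. In the 1758 genes with a replicate 1 cluster in the first 100 bases, the first 250 bases gave 0.686% in replicate 1 and 0.208% in replicate 2, and the stretch from 0.5 to 1 kb gave 3.29% and 3.89%. Between 1 and 2 kb the shares were 2.01% and 11.3%, and between 2 and 3 kb 1.89% and 14.0%. In these genes the highest share of replicate 1 was thus at 0.5 to 1 kb and not at 1 to 2 kb as over all genes. They were chosen by replicate 1 clusters, and held 2770 of the 4961 clusters of the first 250 bases in that replicate. The low share there is therefore not a separate observation. The median log2 fold moved differently in the 2 lists. In replicate 1 it was 0.68 over the first 1 kb, 0.27 from 1 to 3 kb and 0.03 past 3 kb in the same genes, and in replicate 2 it was 0.85, 1.66 and 1.85. Clusters of the first 1 kb in replicate 1 were thus higher in their median than those further in while fewer of them passed the threshold than from 1 to 3 kb.

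Clusters were also grouped by the denominator of their fold in lowest terms. It can be smaller than the input reads and so matches input depth only roughly. Its median was 2 in the first 1 kb and 1 past 3 kb of the same genes in replicate 1, and 3 and 2 in replicate 2. The shift in replicate 1 was small, with 49.0% and 51.0% of clusters at a denominator of 1, against 29.2% and 39.7% in replicate 2. Over all genes the replicate 1 median was again 2 from 3 to 5 kb. The shares were set side by side at like denominators. In replicate 2 the first 1 kb was lower in every class. At a denominator of 1 it had 3.90% enriched, against 17.1% from 1 to 3 kb and 18.0% past 3 kb in all genes over 10 kb. At denominators of 2 to 4 the shares were 2.69%, 12.6% and 13.9%, at 5 to 9 they were 1.07%, 6.66% and 7.21%, and at 10 or more 0.690%, 1.67% and 2.58%. In replicate 1 the first 1 kb had 2.06%, 1.02%, 0.745% and 1.08% in the same order of classes. From 1 to 3 kb the shares were 2.80%, 2.18%, 0.603% and 0.398%, and past 3 kb 1.64%, 0.995%, 0.435% and 0.281%. The first 1 kb as a whole was thus not under the gene body in any class. Its first 250 bases were under it at a denominator of 1 (0.783%) and of 2 to 4 (0.442%). In the classes of higher denominator the first 250 bases held few enriched clusters, 3 of 703 (0.427%) and 2 of 247 (0.810%).

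**Figure D2:**
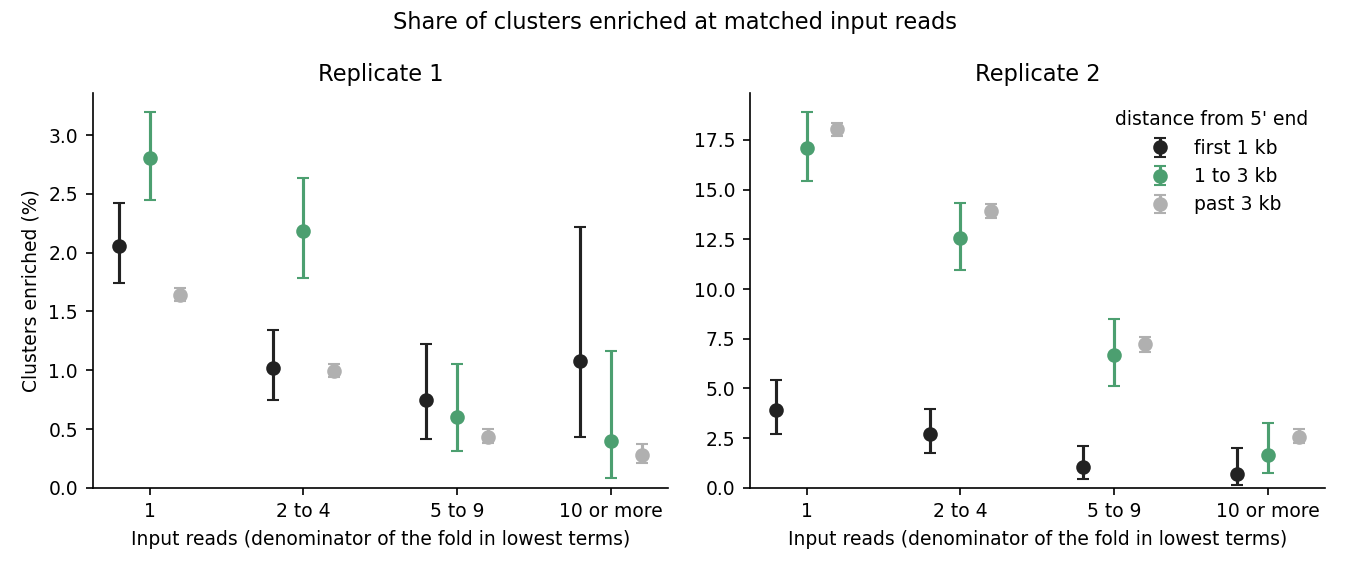
Percentage of clusters enriched (y axis, a separate scale for each replicate) by the denominator of the deposited fold in lowest terms (x axis). The denominator can be smaller than the input reads named on the axis and in the title, so input reads were not matched exactly. Shown are the first 1 kb, 1 to 3 kb and past 3 kb of protein-coding genes over 10 kb, and bars are exact 95% binomial intervals. In replicate 2 the first 1 kb lies under the gene body in each class, at 3.90% against 18.0% for a denominator of 1. In replicate 1 it does not, at 2.06% against 1.64%.

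The reproducible list was emptier still at the 5′ end. It held 1 peak in the first 1 kb, 25 peaks between 1 and 2 kb and 28 between 2 and 3 kb, with a median distance of 2052 bases. Per 1000 replicate 2 clusters there were 11.0 reproducible peaks between 1 and 2 kb and 11.1 between 2 and 3 kb, against 9.07 between 3 and 5 kb. Within 1 to 3 kb the rate was therefore close to that just beyond. The median log2 fold in the authors' reproducible list was 4.83 for the 54 start peaks and 4.64 for the 1236 peaks past 3 kb. Touching peaks merged into 32 sites. Enriched clusters of both replicates overlapped 49 of the 54 peaks, and all 54 were overlapped by an enriched cluster of replicate 2. The list was made from these same replicates, so such overlap was largely set in advance and is no separate support.

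**Figure D3:**
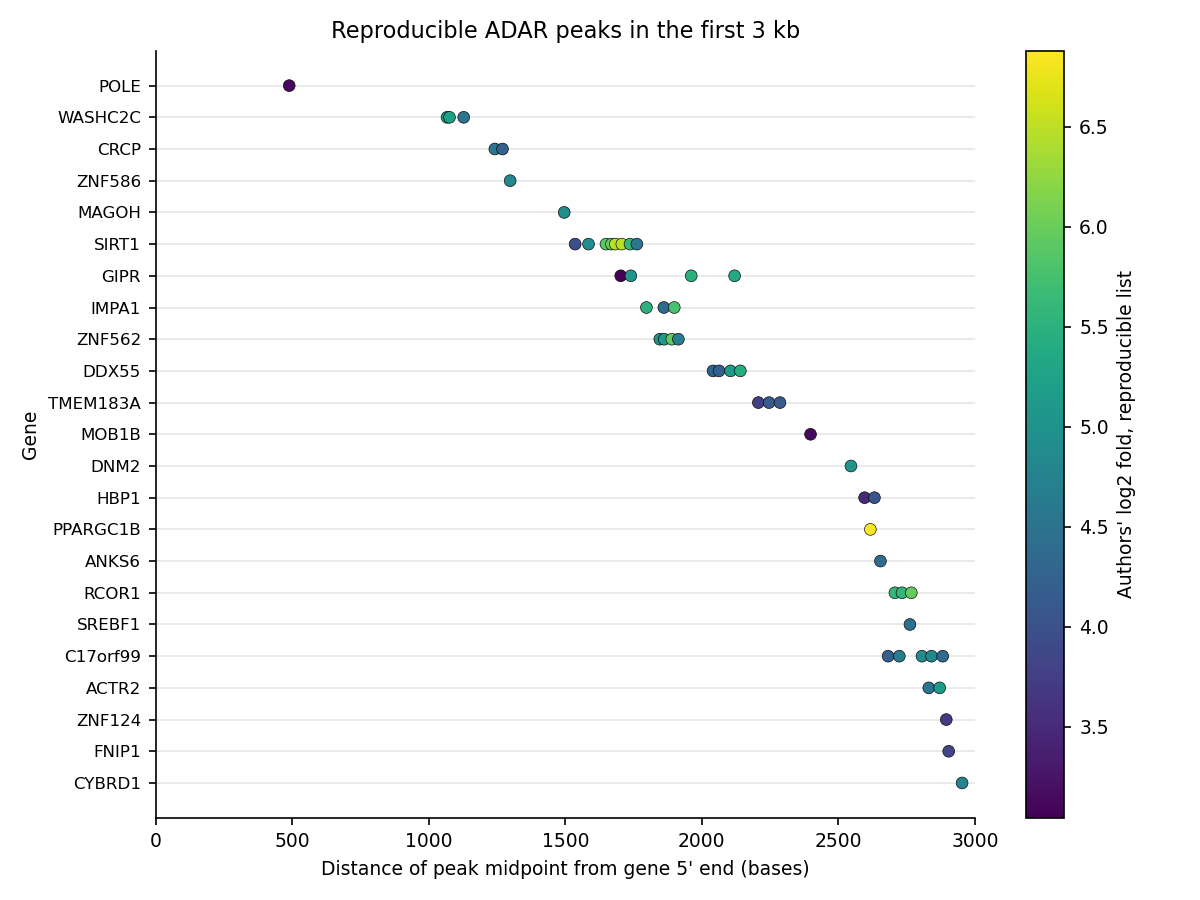
Position of the 54 reproducible peaks in 23 genes, as distance of the peak midpoint from the gene 5′ end in bases (x axis, linear), 1 row per gene, coloured by the log2 fold of the authors' reproducible list. The POLE peak, at 489 bases, is the only one in the first 1 kb, and the others lie between 1067 and 2953 bases.

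CYBRD1 and ZNF124 held reproducible peaks close to both sides of the 3 kb limit, with like folds. In CYBRD1, which encodes a ferric reductase, a peak inside at 2953 bases had a log2 fold of 4.77 and its neighbour outside at 3002 bases had 4.45. In ZNF124 a peak at 2895 bases had 3.70 and one at 3049 bases had 3.72. In both genes the limit thus divides a run of peaks that continues into the gene. Of the 23 genes 7 held any reproducible peak past 3 kb.

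SIRT1, which encodes a NAD-dependent deacetylase, held the most reproducible start peaks, 8 in all, between 1536 and 1762 bases from its 5′ end on chromosome 10 (span 67884656 to 67918390). At its strongest cluster, 1707 bases in, replicate 1 had 548 IP reads and 1 input read, and the strongest cluster of replicate 2, 1746 bases in, had 70 IP and 2 input reads. The log2 folds were 7.36 and 5.98. These clusters lie side by side and do not overlap. The replicate 2 cluster over the strongest site of replicate 1 (67886292 to 67886379) had a log2 fold of 5.67 and a −log10 p at the limit of 400, and its reads could not be recovered. In all, 9 of 15 start clusters in replicate 1 and 4 of 4 in replicate 2 were enriched. No reproducible peak of SIRT1 lay past 3 kb.

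The highest reproducible log2 fold of the start peaks, 6.88, was in PPARGC1B, a coactivator of nuclear receptors in energy metabolism. Its single peak, at 149732894 to 149732960 on chromosome 5, was 2617 bases from the 5′ end. It had 193 IP and 1 input read in replicate 1 and 108 IP and 1 input read in replicate 2, so the inputs were at a single read in both. The span is 127650 bases long, and no other reproducible peak was found in it.

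Transcriptional and chromatin regulators, grouped after they were seen, included RCOR1, HBP1 and SREBF1 besides SIRT1 and PPARGC1B. The share of such genes among all genes with a start cluster was not counted, and nothing is read from the grouping. RCOR1, the CoREST scaffold of the LSD1 demethylase complex, held 3 peaks between 2707 and 2767 bases with a highest reproducible log2 fold of 5.97, and 7 more past 3 kb. Its strongest clusters had 231 IP and 2 input reads in replicate 1 and 151 IP and 2 input reads in replicate 2. HBP1, an HMG-box transcription factor, held 2 peaks, yet its highest log2 fold was 2.73 in replicate 1 (155 IP and 7 input reads) and 4.61 in replicate 2 (81 and 6). HBP1 was thus under the threshold in replicate 1 and over it in replicate 2. SREBF1, the sterol regulatory transcription factor, had 1 peak at 2762 bases, with log2 folds of 3.24 and 5.79 at its strongest clusters.

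3 of the 23 genes carry ZNF symbols, given to zinc finger protein genes: ZNF562, ZNF586 and ZNF124. Such symbols made up 3.60% of the 6631 genes with a start cluster in replicate 1 and 3.65% of the 3366 in replicate 2; the count was made after the genes were seen and nothing is read from it. ZNF562 held 4 peaks between 1846 and 1914 bases, with 164 IP and 2 input reads in replicate 1 and 175 IP and 3 input reads in replicate 2. ZNF586 held 1 peak at 1298 bases, with 63 IP and 1 input read in replicate 1 and 113 IP and 4 input reads at the strongest cluster of replicate 2. Genes of this family share sequence, and the sources used here do not say how reads with several matches were placed.

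Genes for proteins that act on RNA or DNA, grouped after they were seen, included DDX55, MAGOH, CRCP and POLE. DDX55, a DEAD-box RNA helicase, held 4 peaks between 2041 and 2141 bases, and its strongest clusters had 174 IP and 2 input reads in replicate 1 and 202 IP and 4 input reads in replicate 2. MAGOH, a core protein of the exon junction complex, held 1 peak at 1496 bases, with 177 IP and 3 input reads and then 58 and 2. CRCP, a subunit of RNA polymerase III, held 2 peaks at 1242 and 1270 bases, with 68 IP and 1 input read and then 52 and 4. POLE, the catalytic subunit of DNA polymerase epsilon, held the peak nearest to a gene start, at 489 bases (chromosome 12, 132686798 to 132686907). It had 119 IP and 4 input reads in replicate 1 and 67 IP and 15 input reads in replicate 2, and its reproducible log2 fold of 3.13 was near the lower end of the 54.

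The other genes were of mixed function. GIPR, the receptor for gastric inhibitory polypeptide, held 4 peaks between 1703 and 2120 bases, with 240 IP and 1 input read in replicate 1 and 45 IP and 3 input reads in replicate 2. IMPA1, an inositol monophosphatase, held 3 peaks between 1797 and 1899 bases, and its start clusters were among the most often enriched in both replicates, 11 of 16 and 8 of 9. WASHC2C, of the endosomal WASH complex, held 3 peaks, with 117 IP and 3 input reads in replicate 1 and 201 IP and 3 input reads in replicate 2. C17orf99 held 5 peaks, all between 2682 and 2882 bases, and its strongest clusters, 2723 and 2882 bases in, had 253 IP and 3 input reads in replicate 1 and 91 and 3 in replicate 2. TMEM183A held 3 peaks between 2207 and 2286 bases. ACTR2, an actin-related subunit of the Arp2/3 complex, held 2, at 2831 and 2871 bases. MOB1B, an adaptor of the Hippo pathway, held 1 peak at 2398 bases and was well covered by input, with 574 IP and 24 input reads in replicate 1 and 193 IP and 32 input reads in replicate 2, log2 folds of 2.85 and 3.45. DNM2, the membrane fission protein dynamin 2, held 1 peak at 2546 bases, with 117 IP and 2 input reads and then 53 and 3, and 4 more reproducible peaks past 3 kb. ANKS6, an ankyrin repeat protein of the cilium, held 1 peak at 2654 bases, with 171 IP and 2 input reads and then 41 and 4. The highest start fold was larger in replicate 2 for 18 of the 23 genes and larger in replicate 1 for 5. FNIP1, a folliculin-interacting protein, was the widest apart, with a highest log2 fold of 0.85 in replicate 1 and 5.39 in replicate 2.

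**Figure D4:**
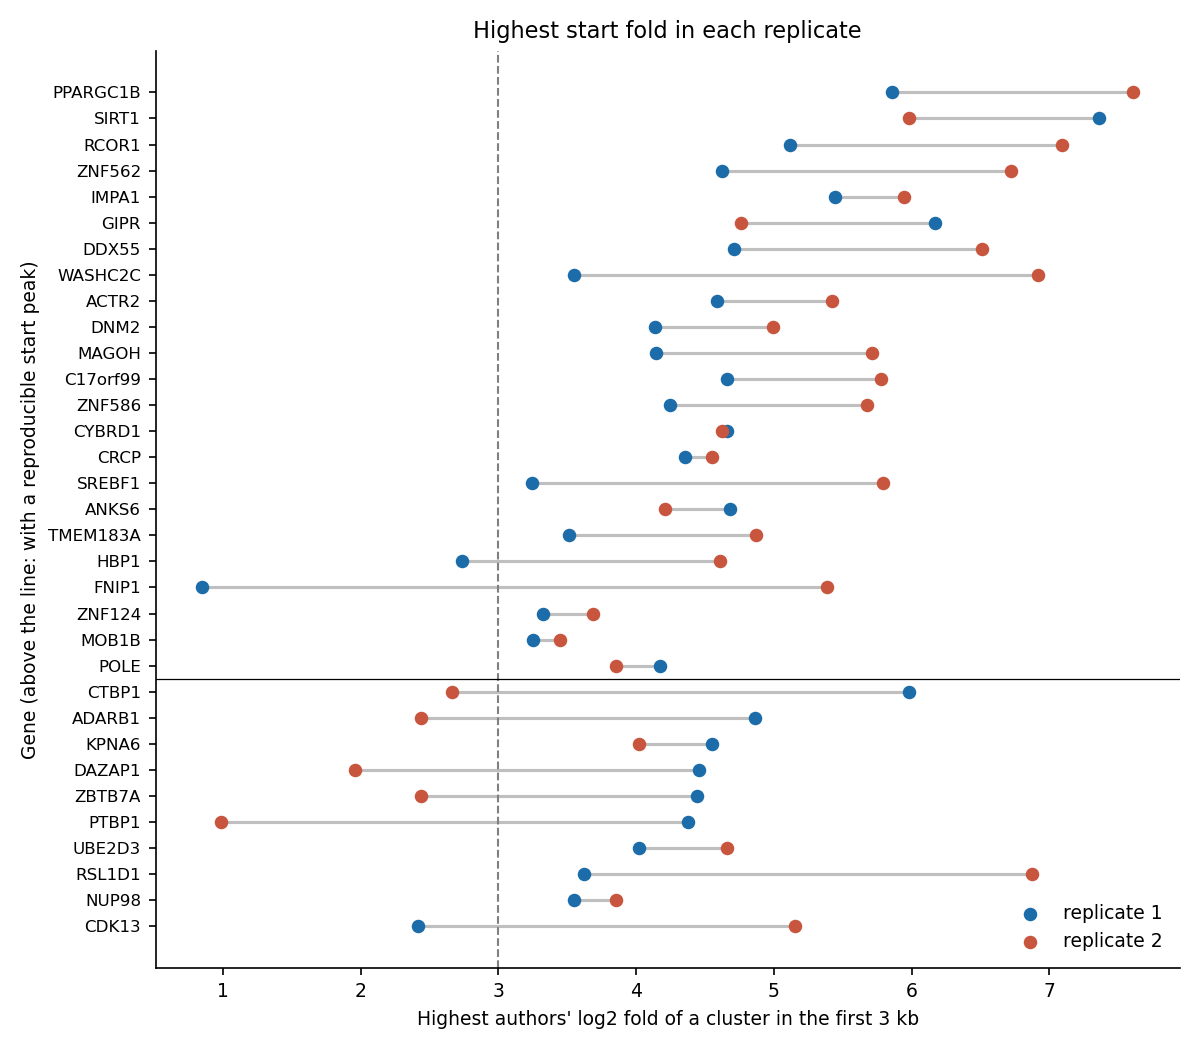
Highest log2 fold of IP over input among the start clusters of a gene (x axis, authors' values) in replicate 1 (blue) and replicate 2 (red), for the 23 genes with a reproducible start peak (above the line) and 10 other named genes (below it); the dashed line is the threshold of 3. FNIP1 and HBP1 are the reproducible genes whose replicate 1 point lies under 3, at 0.85 and 2.73, and PTBP1 is at 4.38 in replicate 1 and 0.99 in replicate 2.

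At the level of genes, 268 of 6631 genes with a start cluster had an enriched one in replicate 1 (4.04%) and 381 of 3366 in replicate 2 (11.3%). Both lists shared 75 genes, which were 28.0% of the former and 19.7% of the latter. Coverage was present for most of the others, since 248 of the 268 genes had a start cluster in replicate 2. A shared gene need not hold a shared site, and enriched clusters of both replicates overlapped at a site in 58 genes. The 2 lists shared 21 of the 23 genes with a reproducible start peak, and those peaks were taken from the same replicates. Enrichment past 3 kb was then counted in the same genes. In replicate 1, 126 of the 268 genes (47.0%) were also enriched there, against 18.2% of the 6363 genes not enriched at the start, and in replicate 2 the shares were 67.5% (257 of 381) and 56.0% of 2985. Numbers of clusters per gene differ between these groups, and their part was not tested.

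Site by site, fewer enriched clusters of replicate 1 were shared in the first 1 kb than from 1 to 3 kb, while the shares from replicate 2 were alike. Of 216 enriched clusters there in replicate 1, 12 were overlapped on the same strand by an enriched replicate 2 cluster (5.56%, exact 95% interval 2.90 to 9.50%). From 1 to 3 kb the count was 108 of 334 (32.3%, 27.3 to 37.6%). Taken from replicate 2, the shares were 14.3% (10 of 70) and 15.6% (91 of 583). Of all replicate 2 clusters 2.34% were enriched in the first 1 kb and 12.1% from 1 to 3 kb, and of all replicate 1 clusters 1.49% and 2.20%. The part of these shares in the overlaps was not tested. Across 2350 pairs of overlapping clusters in the first 1 kb the folds of the replicates had a Pearson r of 0.26, and across 2732 pairs from 1 to 3 kb 0.46. These are descriptions across clusters, which share libraries and genes.

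The sites of the first 1 kb enriched in both replicates lay in 9 genes, chosen after their values were seen: LRRC8D, FADS2, SF1, POLE, E2F1, UBE2D3, BCKDHB, BUD23 and TMEM164. FADS2 encodes a fatty acid desaturase, and its site 876 bases in had 89 IP and 2 input reads in replicate 1 and 16 IP and 1 input read in replicate 2. E2F1, a transcription factor of the cell cycle, had 37 IP and 1 input read and then 16 and 3, at 617 bases. SF1, the splicing factor that recognises the branch point, had 156 IP and 4 input reads and then 28 and 5, at 767 bases. In UBE2D3, a ubiquitin-conjugating enzyme, the site 771 bases in had 54 IP and 1 input read and then 14 and 1.

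The genes with the most enriched start clusters in replicate 1 were mostly not enriched in replicate 2. PTBP1, a repressor of splicing, had 19 of 21 start clusters enriched in replicate 1, from 95 to 1715 bases, with 346 IP and 5 input reads at the highest fold. In replicate 2 none of its 5 clusters was enriched, and the highest had 23 IP and 21 input reads. DAZAP1, an RNA-binding protein, had 13 of 23 and 0 of 11. CTBP1, a transcriptional corepressor, had 11 of 12 and 0 of 4, with 210 IP and 1 input read at its top cluster in replicate 1 and 7 IP and 2 input reads in replicate 2. ZBTB7A, a repressor of fetal globin, had 11 of 19 and 0 of 8. IMPA1 was the exception among the 5 leading genes. The other leading genes were also enriched past 3 kb in replicate 1, so their enrichment was not limited to the start. The counts there in replicates 1 and 2 were 8 of 43 and 3 of 14 in PTBP1 and 9 of 50 and 0 of 26 in DAZAP1. They were 14 of 43 and 0 of 23 in CTBP1, 4 of 21 and 1 of 26 in ZBTB7A, and 0 of 14 and 0 of 7 in IMPA1.

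Of the 5 genes with the most enriched start clusters in replicate 2, IMPA1, RCOR1 and DDX55 had reproducible start peaks, described above, and CDK13 and RSL1D1 had none. CDK13, a kinase of transcription elongation, had 7 of 8 start clusters enriched in replicate 2, between 504 and 927 bases, with 138 IP and 7 input reads at the highest. None of its 7 clusters in replicate 1 was enriched, and the highest there had 89 IP and 5 input reads. RSL1D1, a nucleolar protein, had 7 of 8 enriched in replicate 2 (65 IP and 1 input read at the highest) and 1 of 9 in replicate 1 (41 and 1). At CDK13 both IP libraries thus held many reads, with highest log2 folds of 2.42 and 5.16. These clusters do not overlap, lying 632 and 891 bases in. The enriched replicate 2 clusters over the strongest replicate 1 cluster had log2 folds of 4.31 and 4.10.

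GC content at the start differed in its median between the lists. A promoter sequence was found for 84.4% of the 173 genes enriched in replicate 1 only among those with clusters in both, and their median GC content was 71.7% (quartiles 63.4 and 78.6%). For the 304 genes enriched in replicate 2 only it was 65.5% (59.7 to 71.7%, sequence for 85.5%). The 2745 genes with clusters in both and enriched in neither had 66.7% (60.3 to 73.0%, sequence for 84.3%), and the 23 reproducible genes had 65.3% (sequence for 91.3%). The quartile ranges overlapped. Whether GC content affected the capture of RNA in either replicate was not tested.

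The replicate 1 start clusters of ADARB1, the gene of the related editing enzyme ADAR2, were enriched in 4 of 7 cases, from 95 to 512 bases. The highest had 194 IP and 2 input reads, a log2 fold of 4.87. In replicate 2 neither of its 2 clusters was enriched, the highest having 12 IP and 4 input reads, a log2 fold of 2.44. The 30 bases at the centre of the strongest replicate 1 cluster (chr21:45074888-45074917, plus strand, GRCh38.p14) are shown with those of a PTBP1 cluster 300 bases from its 5′ end (chr19:797747-797776, plus strand), as examples of gene starts enriched in replicate 1 and not in replicate 2; no GGGCGG is present on either strand.
ADARB1: gtggggccggagctgcgggccgtcccggga
PTBP1: gcgcacgcggcctcccgcgcccctccccct

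Among these 30 bases 25 were G or C in ADARB1 and 26 in PTBP1. The longest inverted repeat in the ADARB1 window had arms of 11 bases, 212 bases apart.

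The gene lists were read against 4.04% and 11.3% of genes with a start cluster. Genes for double-stranded RNA binding and sensing had 3 of 14 enriched in replicate 1, ADARB1, DGCR8 and DHX9, and 0 of 9 in replicate 2. DGCR8, the microRNA processing partner of Drosha, had 218 IP and 7 input reads at 104 bases in replicate 1, and its highest log2 fold in replicate 2 was 1.85. DHX9, an RNA helicase that unwinds double-stranded RNA, had 86 IP and 3 input reads at 340 bases in replicate 1 and a highest log2 fold of 2.51 in replicate 2. Transcripts known to be edited or recoded had 1 of 21 enriched in replicate 1, AZIN1, and 4 of 15 in replicate 2, CDK13, NARF, VHL and XIAP, with none in both. AZIN1, the antizyme inhibitor recoded in its coding sequence, had 59 IP and 1 input read at 444 bases in replicate 1.

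Erythroid and haematopoietic regulators had 4 of 11 enriched in replicate 1, CBFA2T3, LYN, TAL1 and ZFPM1, and 0 of 9 in replicate 2. ZFPM1, the GATA1 cofactor FOG1, had 5 of 13 start clusters enriched in replicate 1, with 136 IP and 2 input reads at the highest, while its highest in replicate 2 had 25 IP and 14 input reads. Past 3 kb ZFPM1 had 60 of 170 clusters enriched in replicate 1 and 0 of 71 in replicate 2, so its replicate 1 enrichment was not limited to the start. The counts past 3 kb were 42 of 138 and 0 of 58 in CBFA2T3, 8 of 163 and 25 of 84 in LYN, and 0 of 29 and 0 of 12 in TAL1. Erythroid membrane and iron genes had 0 of 13 and 1 of 7, the latter being TFRC, the transferrin receptor. Chromatin regulators had 4 of 46 and 5 of 34, and of these RCOR1 was enriched in both. Nuclear transport genes had 4 of 26 and 4 of 19, with KPNA6, NUP98 and XPOT in both. The enriched XPOT clusters of the replicates did not overlap, lying 599 bases in for replicate 1 and 725 for replicate 2. KPNA6, an importin alpha, had a site 2799 bases in that was enriched in both, with 78 IP and 1 input read in replicate 1 and 21 IP and 4 input reads in replicate 2.

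Genes of DNA replication and the cell cycle had 3 of 26 and 2 of 11, with POLE in both. The ubiquitin pathway had 2 of 32 and 4 of 26, with UBE2D3 in both. Splicing and RNA processing genes had 3 of 25 and 2 of 20, translation factors and aminoacyl-tRNA synthetases 3 of 29 and 3 of 20, and Mediator and elongation genes 1 of 25 and 2 of 16, with no gene in both for any of these lists. Genes of BCR and ABL1 signalling had 1 of 23, LYN, and 1 of 15, CRKL. Hepatocyte genes had 0 of 1 in replicate 1 and no start cluster in replicate 2. Several of these shares differ from the background by only 1 or 2 genes, and nothing particular to a list is read from them.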

How the data were processed

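ADAR eCLIP of K562 cells gave 2 IP and 2 input libraries. The submitters' processing notes name STAR 2.4.0i and cutadapt 1.9; the sources used here give neither the peak caller nor the rule that combined the replicates. The authors deposited 3 peak lists; the log2 fold in the deposited lists is the authors' IP over input per peak, and the −log10 p-value in the deposited lists is the authors' significance, limited to 400. Reads per library are not stated. Up to 1 shared constant, the folds were log2 of a ratio of whole reads for 99.9% and 99.7% of clusters (denominators up to 200, tolerance 1e-07). Taking the commonest fold as 3 IP over 1 input read, the IP library was 3.33 times as deep as the input in replicate 1 and 0.553 times as deep in replicate 2. The multiple of the ratio whose binomial or chi-square p matched the deposited one within 0.02 gave reads for 99.6% and 99.8% of enriched start clusters, with medians of 71 and 19 IP reads and 2 input reads. That step was checked on simulated data made with the same constant and with binomial p-values only. The check could therefore not test the constant itself or the chi-square p.

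Gene spans and promoter sequences came from RefSeq, GRCh38.p14. Of 14343 protein-coding genes over 10 kb, 11573 had an annotated strand and 1254 took that of at least 80% of at least 5 clusters; 1516 had none and were left out. Where both were known, 36 of 6626 disagreed. A further 9.19% and 8.95% of clusters lay in several spans and were left out. Coordinates count from 1. For promoter GC content and the shares of GGGCGG, a gene's listed start nearest to the 5′ end of its span was used. Printed sequences and inverted repeats came from windows at any listed start of a gene.

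The members and the gene lists were chosen with earlier results of these data known, and the lists, written from general knowledge, support nothing beyond their counts. Named genes are the 12 with most reproducible start peaks, the 5 with the highest reproducible fold, the 5 with most enriched start clusters in each replicate, and up to 3 of each list; other genes named were chosen after their values were seen. Shares carry exact (Clopper-Pearson) 95% intervals. Python 3.11.15, numpy 2.4.6, pandas 2.3.3, scipy 1.17.1 and matplotlib 3.10.9 were used. The alternatives tried are in the closing section; distance from the nearest start, covered starts and 1 to 3 kb alone were added after seeing the data.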

Additional observations from a re-analysis of the deposited data

Results flagged for a closer look

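Clusters on the strand opposite to the gene lie outside the comparisons above. In the first 3 kb there were 152 of them in replicate 1, of which 1 was enriched (0.658%, exact 95% interval 0.0167 to 3.61%), and 30 in replicate 2, of which 4 were enriched (13.3%, 3.76 to 30.7%). The replicate 1 cluster lay in FADS1, a fatty acid desaturase gene whose neighbour FADS2 runs the opposite way, 1412 bases from the 5′ end, with 62 IP and 2 input reads. In replicate 2 they lay in 3 genes. SLAMF9 had 31 IP and 4 input reads at 1026 bases, ANP32A 12 IP and 1 input read at 6 bases, and TNFAIP8L1 2 adjacent clusters with 12 IP and 1 input read each, at 2558 and 2590 bases. Whether an unlisted antisense transcript lies there was not tested.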

How the results depend on the processing

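No paired analysis was possible because the results come from no test across samples: each deposited fold already sets an IP against the input of its own number, and the 2 resulting values are given one by one. The direction of the start against the rest held under every setting run: positive in replicate 1 and negative in replicate 2. The difference in percentage points was 0.65 and -6.02. It became 2.15 and -7.40 at a log2 fold of 2, 0.11 and -3.74 at 4, and 0.45 and -4.20 at a −log10 p of 5. A window of 1 kb gave 0.28 and -11.96, and genes over 20 kb gave 0.47 and -6.72. Clusters whose fold had a denominator of at least 5, in lowest terms, gave 0.32 and -3.14. For 1 to 3 kb alone, added after seeing the data, it was 0.98 and -2.31. The mean of 0.65 and -6.02 was -2.68. It ranged from -6.02 to 0.65 when 1 replicate was left out, so it reversed without replicate 2. Enriched start clusters, 550 and 653, were 1239 in replicate 1 at a log2 fold of 2, 145 and 312 at 4, 347 and 412 at a −log10 p of 5, and 216 and 70 in 1 kb. The 75 genes enriched in both were 137, 29, 43 and 10 under those 4 settings, and 268 to 381 when 1 replicate was left out. The 54 reproducible peaks were 1 in 1 kb and 32 when touching peaks were merged. The overlap of 21.8% from replicate 1 and 15.5% from replicate 2 was 16.7% and 19.0% at a log2 fold of 2, 29.7% and 12.2% at 4, 15.3% and 12.4% over at least 20 bases, 53.6% and 86.1% with any cluster, and 5.56% from replicate 1 in 1 kb. These counts change by construction, since each setting keeps other clusters. The other 20 of 59 values were within their limits, strand from the clusters alone among them. The few input reads, at a median of 2 for enriched start clusters, limit each fold.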

Other observations

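Measured from the nearest upstream RefSeq start of the same gene instead of the end of its span, a measure chosen after seeing the data, the share enriched was again lowest in the first 250 bases. In replicate 1 it was 1.12% there, 1.79% in the next 250 bases, 2.67% from 0.5 to 1 kb, 2.15% from 1 to 2 kb and 1.50% from 2 to 3 kb. In replicate 2 it was 0.298%, 2.13%, 6.08%, 11.8% and 13.8%. Of the reproducible peaks that could be placed against a listed start, 0 lay in the first 250 bases by this measure, 1 in the next 250 and 3 from 0.5 to 1 kb. Clusters and peaks of genes without a listed start were left out.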
